A study of Homo sapiens with 2 samples.

Results

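The transcription factors that set photoreceptor and retinal fate were measured in Y79 retinoblastoma cells left untreated or treated with siRNA against Ep-CAM. The set held 10 genes of the 30982 gene names on the array: CRX, NRL, NR2E3, OTX2, RXRG, THRB, NEUROD1, RORB, PAX6 and SIX3. They were found by their gene symbol, which matched 12 of the 41000 non-control probes, with 1 probe for 8 of the genes and 2 probes each for NR2E3 and RORB. The matching used symbols and no signal, while the genes themselves were picked with earlier results of these data known. Y79 is an established human retinoblastoma line that grows in suspension. The siRNA-untreated group was 1 culture on 1 array, and the siRNA-treated group was 1 culture collected 48 h after siRNA against EpCAM (gene symbol TACSTD1) on another. Per the study's methods, both cultures had also been exposed to 5′-azacytidine (AZC), a demethylating agent, to restore Ep-CAM expression. The sample labels do not mention AZC, and no array of AZC-free cells or of cells given scrambled siRNA was analysed here.

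With 1 array per condition analysed here there was no biological replicate, so no test between the conditions was possible. The study's text speaks of biological replicates on the arrays, and no further arrays were analysed here. Each value below carries only the error that the scanner software assigned to that spot, which is a technical error. The software's settings list a preset multiplicative error of 0.1, with the additive error estimated automatically. For brighter spots the scanner error is therefore largely a preset share of the signal. The siRNA target could not check the labels: the TACSTD1 probe read 15.6 in the untreated cells and 12.0 in the siRNA-treated cells, well above background on neither array. The study's own quantitative PCR and western blot reported lower Ep-CAM at 48 h, which this dim probe could not check. The arrays measured RNA pooled from whole cultures, so fewer cells of a type and less RNA per cell cannot be told apart.

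Photoreceptors arise from retinal progenitors through a layered set of DNA-binding proteins. PAX6 and SIX3 specify the eye field and keep progenitors in their state. OTX2 then commits cells to the photoreceptor lineage, and CRX, its homeobox relative, switches on opsin and phototransduction genes. NRL and its target NR2E3 turn the precursor towards the rod fate, NR2E3 also holding cone genes silent, while the nuclear receptors THRB and RXRG act in cone precursors and set which opsin a cone makes. NEUROD1 and RORB act alongside them, in photoreceptor survival and in the induction of NRL. Retinoblastoma cells are known to carry features of cone precursors.

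The probes were 60-base oligonucleotides of the array's design. Those shown here carried a signal well above background on at least 1 array and lie within a protein-coding part of their gene, so that each value below can be tied to the stretch of RNA it reports. Each is written 5′ to 3′ on the strand of the mRNA, in lower case, with its hg17 location from the array's annotation. The capitals in CRX mark the stop codon that ends its reading frame.
CRX: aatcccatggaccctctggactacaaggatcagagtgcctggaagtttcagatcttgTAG
OTX2: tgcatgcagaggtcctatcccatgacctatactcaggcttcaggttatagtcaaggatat
SIX3: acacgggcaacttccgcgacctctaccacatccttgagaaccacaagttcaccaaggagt
PAX6: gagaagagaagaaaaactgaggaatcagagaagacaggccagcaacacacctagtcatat
NR2E3: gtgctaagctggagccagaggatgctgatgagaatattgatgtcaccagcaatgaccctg
THRB: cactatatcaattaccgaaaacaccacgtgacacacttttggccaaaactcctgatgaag
The CRX probe lies at chr19:53034977-53035036 on the plus strand, and the OTX2 probe at chr14:56338509-56338568 on the minus strand. The SIX3 probe lies at chr2:45081316-45081375 on the plus strand, and the PAX6 probe at chr11:31771838-31771897 on the minus strand. The NR2E3 probe spans chr15:69891547-69891765 on the plus strand, 219 bases of genome for 60 bases of probe, so it crosses an intron. The THRB probe lies at chr3:24139493-24139552 on the minus strand. No 2 of the 12 probes shared a run of more than 8 bases, and their GC content lay between 35.0 and 53.3%. Probes of different sequence bind with different strength, so levels are compared only between the arrays for the same probe and never between genes.

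Of the 12 probes, 6 were well above background on both arrays, which is 50% against 65.8% of all probes. They belonged to CRX, OTX2, SIX3, PAX6, NR2E3 and RORB. The THRB probe passed on the untreated array alone, and 5 probes passed on neither. NRL, NEUROD1 and RXRG passed at none of their probes. No member spot was saturated or carried an outlier flag.

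Signals are the scanner software's processed signal, the spot brightness less its background in arbitrary units. The median over all non-control spots without an outlier flag was 48.9 on the untreated array and 50.0 on the siRNA-treated array. Each array was divided by its own median before a log2 ratio, siRNA-treated over untreated, was taken. CRX, OTX2 and SIX3 lay above these medians on both arrays, and the other probes below. The median raw brightness of the 153 negative control spots was 71 on the untreated array and 72 on the siRNA-treated array. Raw brightness on the untreated and siRNA-treated arrays was 158 and 143 for CRX, 137.5 and 120 for OTX2, and 109 and 103 for PAX6. It was 169 and 180 for SIX3, and 93.5 and 98 and 107 and 110 at the brighter NR2E3 and RORB probes. For SIX3, NR2E3 and RORB the raw rise was smaller than the rise in processed signal given below. The part of the background step in those 3 rises was not tested.

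**Figure D1:**
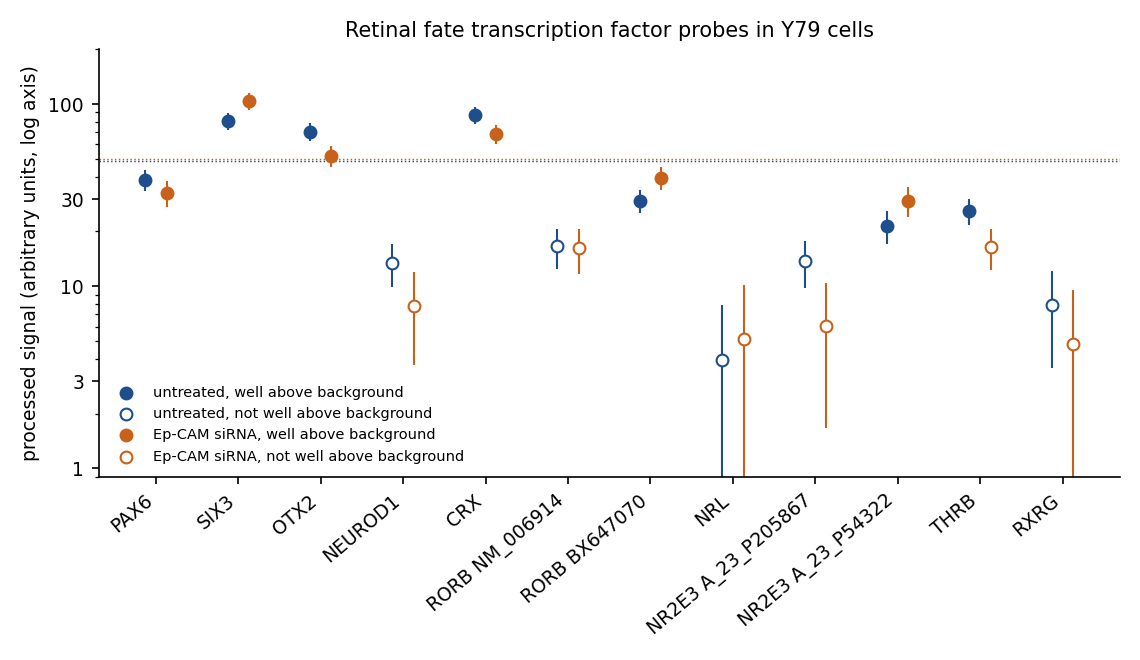
Processed signal (arbitrary units, log axis) of the 12 probes of the 10 factors on the untreated array (blue) and the siRNA-treated array (orange), 1 array each. Bars are the scanner software's error, filled points are well above background, open points are not, and dotted lines are the array medians of 48.9 and 50.0. Pairs of points can be compared within a probe and not between probes; CRX and OTX2 sit lower and SIX3 higher on the siRNA-treated array, while NRL, NEUROD1 and RXRG are open on both.

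The lineage-committing homeobox factors OTX2 and CRX both had lower signals in the siRNA-treated cells, each by less than 2-fold. OTX2 read 70.4 ± 8.08 (scanner error) in the untreated cells and 52.0 ± 6.86 in the siRNA-treated cells. Its log2 ratio was −0.47 ± 0.25, 1.39-fold lower after siRNA treatment. CRX read 86.8 ± 9.34 in the untreated cells and 68.7 ± 8.03 in the siRNA-treated cells. Its log2 ratio was −0.37 ± 0.23, 1.29-fold lower. The OTX2 difference was 1.86 times its scanner error and the CRX difference 1.62 times. The OTX2 spot lay in the lower right area (columns 43 to 85 of rows 355 to 532), where measured probes of all kinds had a wider spread of log2 ratios (SD 0.51 over 4396 probes) than on the rest of the array (SD 0.29 over 22453 probes). The part of that area in the OTX2 value was not tested.

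Of the eye-field factors, only SIX3 differed by more than its scanner error. SIX3 read 80.3 ± 8.61 in the untreated cells and 104 ± 11.2 in the siRNA-treated cells. Its log2 ratio was 0.34 ± 0.22, 1.27-fold higher and 1.57 times its error. PAX6 read 38.5 ± 5.27 in the untreated cells and 32.6 ± 5.33 in the siRNA-treated cells. Its log2 ratio of −0.27 ± 0.31 was smaller than its error, so a difference in PAX6 was not detectable at this brightness.

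The rod factors gave little to compare. NRL, the leucine zipper protein at the head of the rod pathway, read 3.95 in the untreated cells and 5.11 in the siRNA-treated cells. Both were substitute values that the software writes when a spot does not exceed background, so no ratio was taken. NR2E3, the rod nuclear receptor, read 21.4 ± 4.44 in the untreated cells and 29.5 ± 5.49 in the siRNA-treated cells at the coding probe shown above. Its log2 ratio was 0.43 ± 0.40, 1.34-fold higher and 1.06 times its error. The other NR2E3 probe, at chr15:69897379-69897438, read 13.7 in the untreated cells and 6.05 in the siRNA-treated cells, well above background on neither array, so the gene's value rests on 1 of its 2 probes.

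Among the cone nuclear receptors, THRB was on the side of the lower signals. Its probe read 26.0 ± 4.25 in the untreated cells and 16.5 ± 4.16 in the siRNA-treated cells, where it was not well above background. Its log2 ratio as read was −0.69 ± 0.43, 1.62-fold lower and 1.60 times its error. For a more cautious value, the dim signal was set to the lowest signal of any probe well above background on that array, 17.5. THRB was then 1.52-fold lower in the siRNA-treated cells, which is called its bound. The bound is a convention and no strict limit, since some dim spots on that array read higher, such as 1 of KRT18 at 19.6. RXRG, the retinoid X receptor of cones, read 7.85 in the untreated cells and 4.79 in the siRNA-treated cells, well above background on neither array, and its spot lay in the same lower right area as that of OTX2.

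NEUROD1, a basic helix-loop-helix factor, read 13.4 in the untreated cells and 7.83 in the siRNA-treated cells and was well above background on neither array. RORB, an orphan nuclear receptor, had 1 usable probe, designed on the transcript BX647070 at chr9:74532897-74532956. It read 29.5 ± 4.35 in the untreated cells and 39.4 ± 5.65 in the siRNA-treated cells. Its log2 ratio was 0.38 ± 0.30, 1.30-fold higher and 1.29 times its error. The other RORB probe, designed on NM_006914, read 16.6 in the untreated cells and 16.1 in the siRNA-treated cells and was well above background on neither array.

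None of the 7 probes with a ratio or a bound reached 2-fold in either direction, where 1.27% of the 29345 probes tested in the same way were at least 2-fold higher and 0.927% at least 2-fold lower. At 1.5-fold, 1 of the 7 passed, THRB by its bound, against 9.38% of all tested probes. Of the 6 measured probes, 3 were lower in the siRNA-treated cells (OTX2, CRX and PAX6) and 3 higher (NR2E3, RORB and SIX3). Their log2 ratios ran from −0.47 to 0.43 with a median of 0.04, against −0.03 over all 26975 measured probes. In 5 of the 6 the ratio exceeded 1 scanner error, PAX6 being the exception, and in none did it exceed 2. The median of the 6 says little about any of them, since without OTX2 it was 0.34.

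The precision at this brightness can also be read from probes printed several times on each array. Over the 73 repeated probes as bright as the measured factors, the SD of the log2 ratio between spots of a probe had a median of 0.22, within a range of 0.10 to 0.53. Among all 11331 measured probes of that brightness, the log2 ratio had an SD of 0.33, with its 10th percentile at −0.36 and its 90th at 0.35. OTX2 and CRX lay below that range, RORB and NR2E3 above it, and SIX3 and PAX6 inside it. CRX, at −0.371, was only just past the 10th percentile of −0.363, and SIX3, at 0.343, only just inside the 90th of 0.347. The placing differed against each factor's own neighbours, given below.

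**Figure D2:**
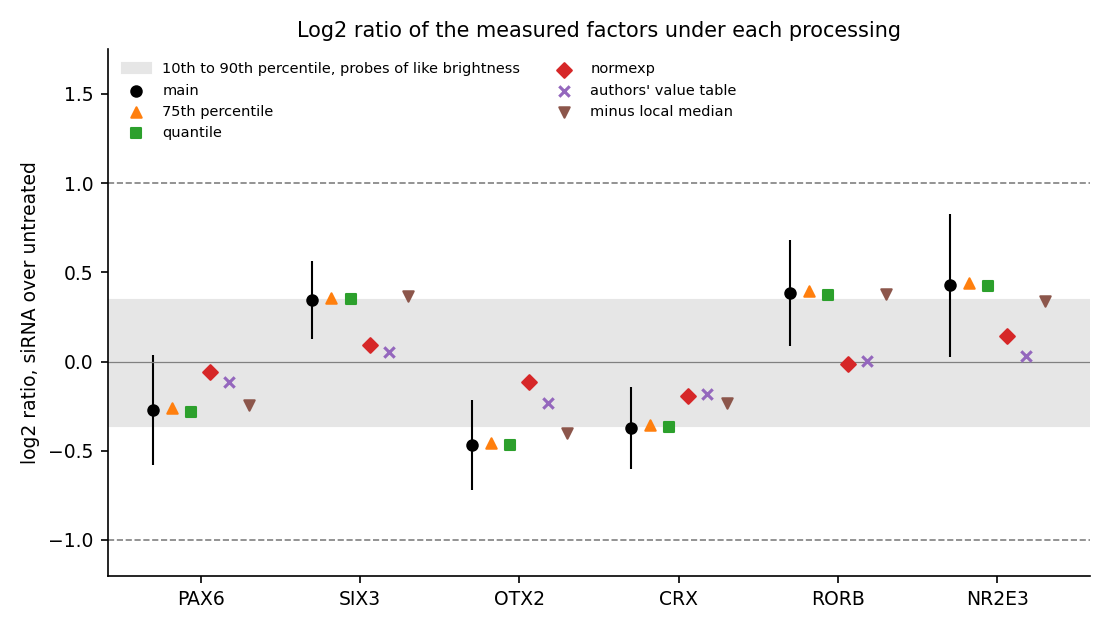
Log2 ratio, siRNA-treated over untreated, of the 6 measured factors under the main processing (black, with the scanner software's error) and under 5 other treatments of the same spots. The grey band runs from −0.36 to 0.35, the 10th to 90th percentile of 11331 probes of like brightness, and dashed lines mark 2-fold. No point reaches 2-fold, and the points from normexp (with quantile normalization) and from the authors' value table sit nearer to 0 than the main ones for every factor.

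These ratios were smaller without background correction. With the raw brightness left uncorrected, as in the value table deposited beside the scanner files, CRX stood at −0.18, OTX2 at −0.23 and PAX6 at −0.12 on the log2 scale. SIX3 stood at 0.06 there, NR2E3 at 0.032 and RORB at 0.0043. RORB also changed sign under 1 setting, at −0.02 with normexp background correction (offset 50) followed by quantile normalization, a setting that changes both steps together.

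Neighbouring spots give a view of the array surface around each factor. Within 5 rows and 5 columns, the OTX2 spot had 74 measured neighbours with a median log2 ratio of −0.07 and an SD of 0.53, and 6 of them were past 2-fold. The CRX spot had 76 neighbours with a median of −0.14, and its own ratio less that median was −0.23. The neighbours of PAX6, SIX3, RORB and NR2E3 had medians between −0.03 and 0.09, and less those medians SIX3 stood at 0.37, RORB at 0.38, NR2E3 at 0.34 and PAX6 at −0.24. Around THRB, the 79 neighbours had a median of 0.06. CRX lay inside the 10th to 90th percentile of its neighbours (−0.65 to 0.11), and OTX2 sat at its 10th percentile (−0.47). SIX3, RORB and NR2E3 lay above their neighbours' 90th percentiles (0.19, 0.18 and 0.39). PAX6 lay just below its neighbours' 10th percentile (−0.25).

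**Figure D3:**
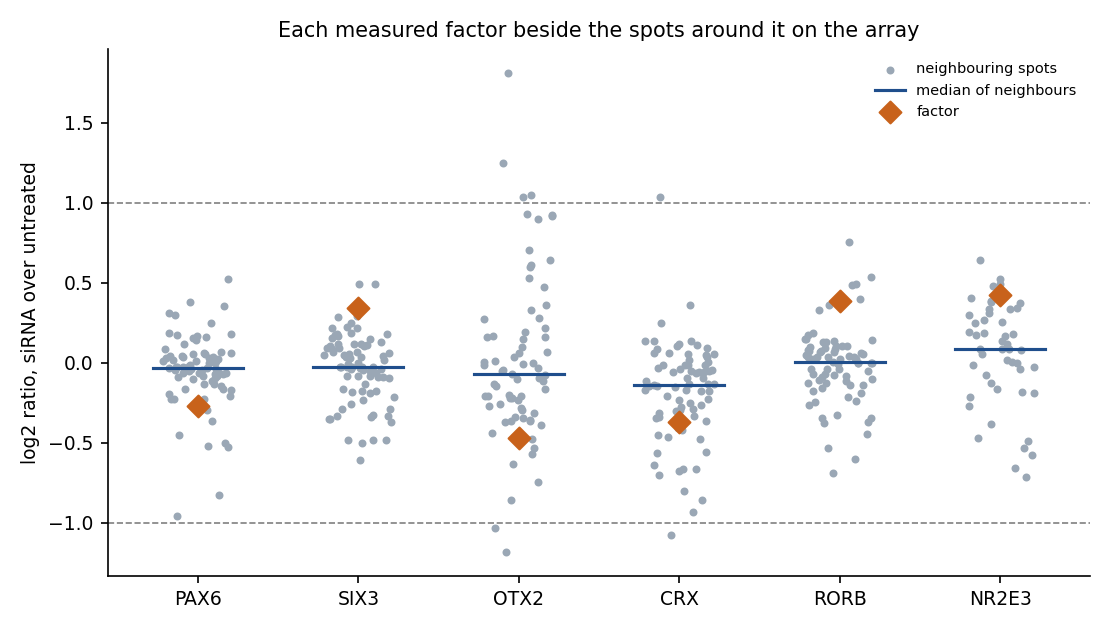
Log2 ratio, siRNA-treated over untreated, of each of the 6 measured factors (diamonds) and of the measured spots within 5 rows and 5 columns of it on the array (grey points, with their median as a line). The neighbours of OTX2, with an SD of 0.53, spread more widely than those of the other factors, and the median for CRX, −0.14, lies furthest from 0.

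The wider set of retinal transcription factors, a list of progenitor, photoreceptor, inner retinal and nuclear receptor genes, was read in the same way. All 56 of its genes considered here were matched to a probe, and 44 were measured on both arrays. Among its 65 probes with a ratio or a bound, 2 were at least 2-fold higher and 2 at least 2-fold lower, and the median log2 ratio over 59 measured probes was −0.02. LHX2, a LIM homeobox factor of eye-field and progenitor cells, read 273 in the untreated cells and 139 in the siRNA-treated cells, a log2 ratio of −1.01. POU4F3, a POU-domain factor of retinal ganglion cells, read 26.9 and 63.1, a log2 ratio of 1.20. Both spots lay outside the lower right area.

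The other 2 probes past 2-fold lay inside that area. NR1D1, the nuclear receptor REV-ERBα, read 619 in the untreated cells and 295 in the siRNA-treated cells at 1 probe, a log2 ratio of −1.10, while its other probe, outside the area, gave −0.14. MEF2C, a MADS-box factor, was not well above background in the untreated cells at 13.8 and read 71.6 in the siRNA-treated cells. It was 4.68-fold higher by its bound. Of the brightest members of this list, THRA, the thyroid hormone receptor related to THRB, had log2 ratios of 0.39 and 0.29 at its 2 probes. SOX4, a progenitor factor, read 1996 and 1124 at its brighter probe, a log2 ratio of −0.86, and −0.20 at the other. RXRB, a relative of RXRG, stood at 0.11.

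Genes that CRX, NRL and NR2E3 are known to control were then set beside the factors. None of the 11 rod gene probes with a ratio or a bound was past 2-fold, and the median over 10 measured probes was −0.06, with 4 above 0 and 6 below it. SAG, rod arrestin, read 22.1 in the untreated cells and 5.59, not well above background, in the siRNA-treated cells. It was 1.29-fold lower by its bound. GNB1, a transducin subunit found in many cells, stood at −0.13 and −0.09. PDE6B, the rod phosphodiesterase, stood at −0.03 and 0.09 at its measured probes, and the kinase GRK1 at 0.15. CNGB1, a subunit of the rod channel, stood at 0.30 and −0.13 at its 2 probes.

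For the cone genes, 6 probes were measured, with a median log2 ratio of −0.19, which turned to 0.026 with dim probes included. None of the 7 with a ratio or a bound was past 2-fold. CNGA3, a cone channel subunit, came closest, 1.99-fold higher by its bound. It was not well above background in the untreated cells at 8.53 and read 30.5 in the siRNA-treated cells. Its spot lay in the lower right area. The blue-cone opsin OPN1SW read 546 in the untreated cells and 445 in the siRNA-treated cells, a log2 ratio of −0.33. OPN1MW and OPN1LW, the green and red opsins, stood at 0.06 and 0.03, but these genes are nearly identical in sequence and their probes may not tell them apart. GNB3, the cone transducin subunit, stood at −0.17.

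Genes that rods and cones share gave 15 measured probes with a median of −0.14, 4 above 0 and 11 below it, and a median of −0.012 with dim probes included. None of the 17 with a ratio or a bound was past 2-fold. UNC119, a trafficking protein of photoreceptor synapses, read 521 in the untreated cells and 322 in the siRNA-treated cells, a log2 ratio of −0.73. IMPG2, a matrix proteoglycan around photoreceptors, stood at 0.41, RDH8 at −0.25 and RDH12, both retinol dehydrogenases, at −0.01. With 1 array per condition, the medians of these lists describe the 2 arrays and do not separate one list from another.

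**Figure D4:**
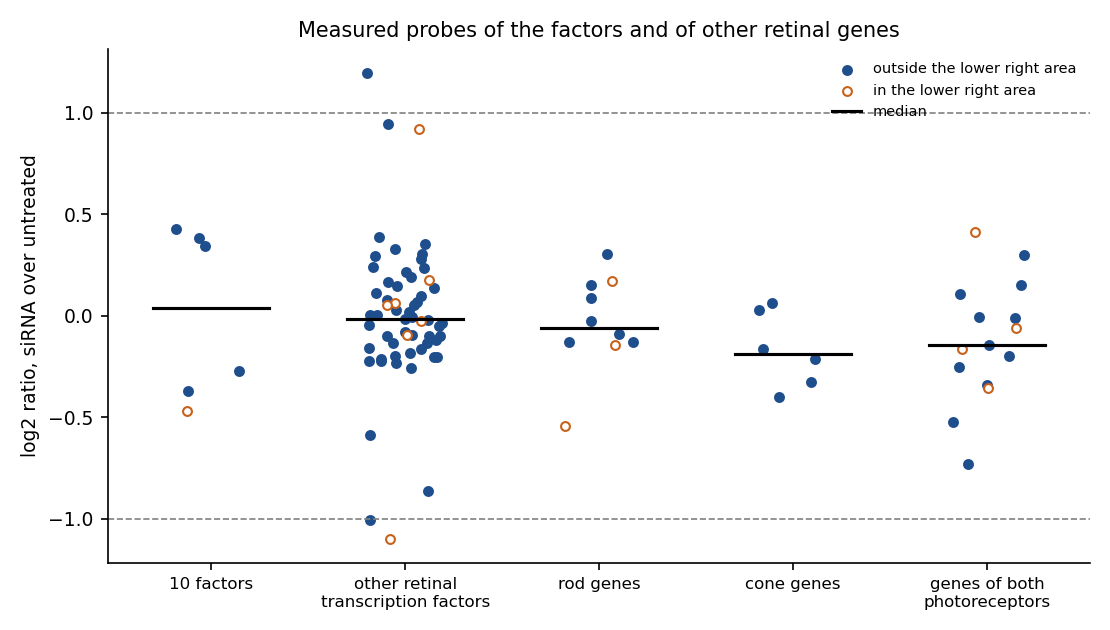
Log2 ratio, siRNA-treated over untreated, of measured probes of the 10 factors and of 4 lists of other retinal genes, 1 point a probe, with list medians as lines and 2-fold as dashed lines. Open orange points lie in the lower right area of the array. All 6 points of the 10 factors lie inside 2-fold, and 3 measured probes, LHX2, NR1D1 and POU4F3, lie outside it, all in the list of other transcription factors.

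Markers of photoreceptors and of other cells were read as well. The summed signal of a list, dim probes included, is set only against the same list on the other array, since sums of different probes cannot be ranked. Of 10 photoreceptor markers, 8 were matched and 4 were measured on both arrays (GNAT1, OPN1SW, OPN1LW and ARR3), and their summed signal over all probes was 1128 in the untreated cells and 1034 in the siRNA-treated cells. Recoverin (listed as RCV1), a defining marker of photoreceptors, was well above background on neither array, at 10.7 and 13.2. Among probes with a ratio or a bound, lists for Müller glia, bipolar cells, pigment epithelium, fibroblasts and epithelium held none past 2-fold. Their summed signals in untreated and siRNA-treated cells were 430 and 465 for Müller glia and 1578 and 1691 for bipolar cells. They were 1415 and 1462 for pigment epithelium, 488 and 420 for fibroblasts, and 1329 and 1364 for epithelium. RPE65 of the pigment epithelium was well above background on neither array. Of the 10 genes on the list for ganglion, amacrine and horizontal cells, all 10 were measured. Its only probe past 2-fold by a ratio or a bound was POU4F3. Among 6 blood markers, the hemoglobin gene HBA1 was saturated on both arrays and HBB read 331 in the untreated cells and 1235 in the siRNA-treated cells, a log2 ratio of 1.87 with an SD of 0.12 over its 8 spots. The part of other cells' RNA in the values of the 10 factors was not tested. The common reference genes GAPDH and ACTB stood at −0.03, and at −0.32, −0.22 and 0.02 over the unsaturated ACTB probes.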

How the data were processed

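RNA of 1 untreated and 1 siRNA-treated Y79 culture was labelled with Cy3 and hybridised by the authors to 1-colour Agilent arrays of 45015 spots, scanned with Agilent Feature Extraction 9.5.3.1 (the file headers' version). The deposited scanner files hold the intensity of each spot, raw and after background subtraction. The deposited value table holds the raw median intensity and differed from the scanner files, by exact equality with no tolerance, at 0 of 40736 single-spot probes on either array. Here, 43376 non-control spots were read, and those flagged as outliers on either array were dropped, which left 40976 of 41000 probes. Processed intensities were divided by the array's median over the kept spots (floor 0.01) and put on the log2 scale. They were then averaged per probe and compared as log2 ratios with pandas 2.3.3 in Python 3.11.15. Normexp used limma 3.58.1 in R 4.3.3 with an offset of 50, followed by quantile normalization. The share of non-control spots well above background was 70.4% (untreated) and 68.0% (siRNA-treated). A probe dim on 1 array received a bound, and a probe dim on both received no ratio. The single array per condition limits precision, and no p-value was computed.

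The 10 factors and the gene lists were chosen with earlier results of these data known. All members were named at every probe, as were list genes past 2-fold and otherwise up to 4 per list with the highest untreated signal. Control genes, some of the marker genes, and the probes within 10 kb of a member that were measured on both arrays were named too. CNGA3 was named because its bound fell just short of 2-fold. GAPDH and ACTB served as controls. Older symbols of 4 list genes (RAXL1, RCV1, NEF3, VMD2) were added after the files were seen, through RefSeq synonyms. GNAT2 and RBP3 were not matched. Some list genes are not reported here and entered no count or median of a list.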

Additional observations from a re-analysis of the deposited data

How the results depend on the processing

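The 6 measured factors were recomputed under 9 other settings each: other scaling or none, quantile normalization, a floor of 5, normexp with quantile normalization, raw brightness, the authors' value table and subtraction of the local median. All kept their direction except RORB with normexp (−0.02). Of these 54 values, 36 moved by less than 0.14, the median SD between repeated spots of all brightness. The other 18 moved by more, all with normexp, raw brightness or the value table. At the brightness of the factors that SD was larger, 0.22. Scaling alone shifts every ratio equally, by at most 0.034, and the floor of 5 lay below every measured factor signal. Those settings could not move a value by 0.14. Raw brightness and the value table hold the same raw medians, so the counts say little about robustness. The count of probes at least 2-fold apart, 0, became 1 at a ratio of 1.5 and 1 with dim probes included, the latter being the dim NR2E3 probe. With the software's weaker criterion (positive and significant against background) 11 probes counted as measured in place of 6. The median of the factors, 0.04, was −0.32 with dim probes included and 0.34 without the lower right area, which removes OTX2. The median of the cone genes, −0.19, was 0.026 with dim probes included. The median of all measured probes moved most without scaling, by 0.034, among the 7 settings of scaling, normalization and background correction for which it was computed. No paired analysis was possible because each condition had 1 array, and for the same reason no array could be left out. For NRL, NEUROD1 and RXRG, each with 1 probe near background, a difference between the cultures was not detectable at this signal.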

Other observations

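Some other probes lay within 10 kb of a factor's probe on hg17, and those measured on both arrays are given here. The probe of BC039397, 4793 bases from the dimmer NR2E3 probe, read 264 in the untreated cells and 298 in the siRNA-treated cells, a log2 ratio of 0.14. The probe of BM451513, near that of SIX3, read 223 and 230, a log2 ratio of 0.01. The probes of CPNE6, next to NRL, gave −0.08 and −0.26.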
